A study of Homo sapiens with 38 samples.

Results

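Epithelial cells hold to each other through tight junctions, adherens junctions and desmosomes, and 44 genes of those structures and of the keratin filaments they anchor, out of 58425 genes quantified, were followed in nuclear and cytoplasmic RNA of HCT116 cells. The genes were chosen by their role in these structures, with earlier results of these data known. They comprise 6 claudins, 4 other tight junction membrane proteins, 4 tight junction plaque proteins, EPCAM, 7 desmosomal proteins, 7 adherens junction proteins, 5 polarity proteins, 4 keratins, 3 epithelial transcription factors, and a surface protease with its 2 inhibitors. HCT116 is a human colorectal carcinoma line. Wild-type cells and 4 knockout lines made by CRISPR editing, lacking AGO1, AGO2, AGO1 and AGO2 (AGO1/2), or AGO1, AGO2 and AGO3 (AGO1/2/3), were each fractionated into nuclei and cytoplasm, with 3 libraries of ribosome-depleted total RNA per line and fraction, 30 in all. Argonaute proteins bind small RNAs, which guide them to their targets, and the study compared each knockout line with wild type. The labels name no other treatment. Each knockout genotype is a single line, and its libraries came from passages 6 to 14, while the wild-type libraries came from passages 27 to 29, so genotype, the history of the line and passage cannot be told apart. The 3 libraries of a group carry different passage numbers of the same line, so p-values measure the spread between those samples only, which may be technical.

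In background terms, claudins seal the space between neighbouring cells, and the plaque proteins beneath them tie the seal to actin. Adherens junctions join cells through cadherins and nectins, which are bound inside the cell by catenins and afadin. Desmosomes join keratin filaments of neighbouring cells through desmosomal cadherins, plakophilins, plakoglobin and desmoplakin. Partitioning proteins place the junctions below the apical surface. Grainyhead-like and OVO-like transcription factors are known regulators of this programme, and loss of the programme is a hallmark of the change from epithelial to mesenchymal character.

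Total estimated reads ran from 20431557 to 79731793 per library, and the wild-type libraries were the shallowest in both fractions, with a median of 22163544 in nuclear and 43094868 in cytoplasmic RNA. The part of depth in any difference from wild type was not tested. AGO1 RNA fell in every line edited at AGO1, with log2 fold changes of -1.25 to -1.90 in nuclei and -3.19 to -3.49 in cytoplasm. AGO2 RNA fell in the AGO2 line (-0.47 in nuclei and -0.67 in cytoplasm), whereas in the line labelled AGO1/2 it was at -0.18 in nuclei, which was not called, and rose by 0.31 in cytoplasm, and AGO3 RNA in the line labelled AGO1/2/3 rose by 0.34 in cytoplasm. Gene totals do not read the edited bases, so they do not check those labels, and each line is called by its label throughout. The wild-type library of passage 29 stood apart: it was the highest of the 3 wild-type libraries for 31 of 43 members in nuclei (72.1%, against 41.6% of 17588 genes) and for 32 of 43 in cytoplasm (74.4%, against 45.3% of 16284 genes), and counts without it are given with the main counts.

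Per unit of transcript length, the highest levels in wild-type nuclei were those of KRT8 (498 ± 24.02 TPM, mean ± SD, n = 3), KRT18 (369 ± 16.2) and KRT19 (226 ± 47.9), the keratins of simple epithelia. The next levels were CTNNA1 (116 ± 8.75 TPM), EPCAM (98.1 ± 6.96), CTNNB1 (95.6 ± 14.1) and DSP (95.5 ± 5.80). Of these, EPCAM, CTNNB1 and DSP did not differ beyond their spread. In wild-type cytoplasm the order was again KRT8 (446 ± 33.6 TPM), KRT18 (407 ± 23.5), KRT19 (223 ± 41.5) and then EPCAM (142 ± 16.4). At the other end, CLDN1 (0.0602 ± 0.0635 TPM in cytoplasm), NECTIN4 (0.170 ± 0.0878) and KRT80 (0.631 ± 0.629) were close to 0 in wild type. Of 8 fixed colon epithelial markers, 2 (CDX2 and KRT20) had reads enough to be tested, with the whole list summing to 3.08 to 4.68 TPM in wild-type nuclei. Of 5 blood markers CD68 alone was tested. Fewer cells of a type and less RNA per cell cannot be told apart in such bulk samples.

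Within wild-type cells, 35 of 43 tested members differed between nucleus and cytoplasm (76.8% of all 20104 genes did), relative to the whole of each fraction. Of these, 10 were higher in nuclei (39.6% of all genes) and 25 in cytoplasm (37.3%). Higher in nuclei were CGN, encoding the plaque protein cingulin, by 3.34 on the log2 scale, the transcription factor gene GRHL2 by 1.94, the claudin CLDN15 by 1.65, AFDN, encoding afadin, by 1.65, DSP, encoding desmoplakin, by 1.58, and the polarity scaffold PATJ by 1.03. Higher in cytoplasm were the claudin CLDN3 (-1.97), the polarity protein CRB3 (-1.36), the protease inhibitor SPINT2 (-1.33), CLDN7 (-1.12) and EPCAM (-1.08). This split depended on scaling. On the log2(TPM + 1) scale, where the median of all genes lay at 0.28, 19 members were higher in nuclei and 9 in cytoplasm, and with protein-coding transcripts alone 14 were higher in each. Of all genes 78.1% and 69.9% were called in these settings, in that order.

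Against wild type, more members rose than fell in nuclei of the double and triple knockouts, and more fell than rose in cytoplasm. The threshold for a call was an adjusted p of 0.05 in edgeR's quasi-likelihood test with Benjamini-Hochberg adjustment over all genes tested. In nuclear RNA of the AGO1/2 line 33 of 43 tested members were called (67.6% of all 18919 genes were), 20 higher and 13 lower, where 32.9% of all genes were called higher and 34.7% lower. In cytoplasmic RNA of the same line 32 of 44 members were called (49.2% of all 17605 genes), 5 higher and 27 lower, against 23.9% and 25.4% of all genes. The median log2 fold change of the members was 0.22 in nuclei and -0.52 in cytoplasm, beside medians of -0.06 and -0.01 over all genes. The AGO1/2/3 line gave 34 called members in nuclei (58.6% of all genes), 23 higher (29.1%) and 11 lower (29.5%). In its cytoplasm 27 were called (38.7% of all genes), 8 higher (18.6%) and 19 lower (20%). The member medians there were 0.39 in nuclei and -0.24 in cytoplasm, beside -0.03 and -0.01 over all genes.

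In the AGO1 line more members fell than rose, and in the AGO2 line the direction varied with the fraction. In nuclei of the AGO1 line 14 members were called (29.9% of all genes), 3 higher (14.3%) and 11 lower (15.6%). In nuclei of the AGO2 line 27 were called (40.2% of all genes), 23 higher (20.2%) and 4 lower (19.9%). In cytoplasm 12 members were called in the AGO1 line (12.4% of all genes), 1 higher (4.28%) and 11 lower (8.13%). In the AGO2 line 12 were called (16.1% of all genes), 4 higher (7.07%) and 8 lower (9%). All 4 comparisons share their wild-type libraries within a fraction, and no test of one line against the other was made except for AGO1/2/3 against AGO1/2. The map of log2 fold changes for the 44 genes shows these columns side by side.

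**Figure D1:**
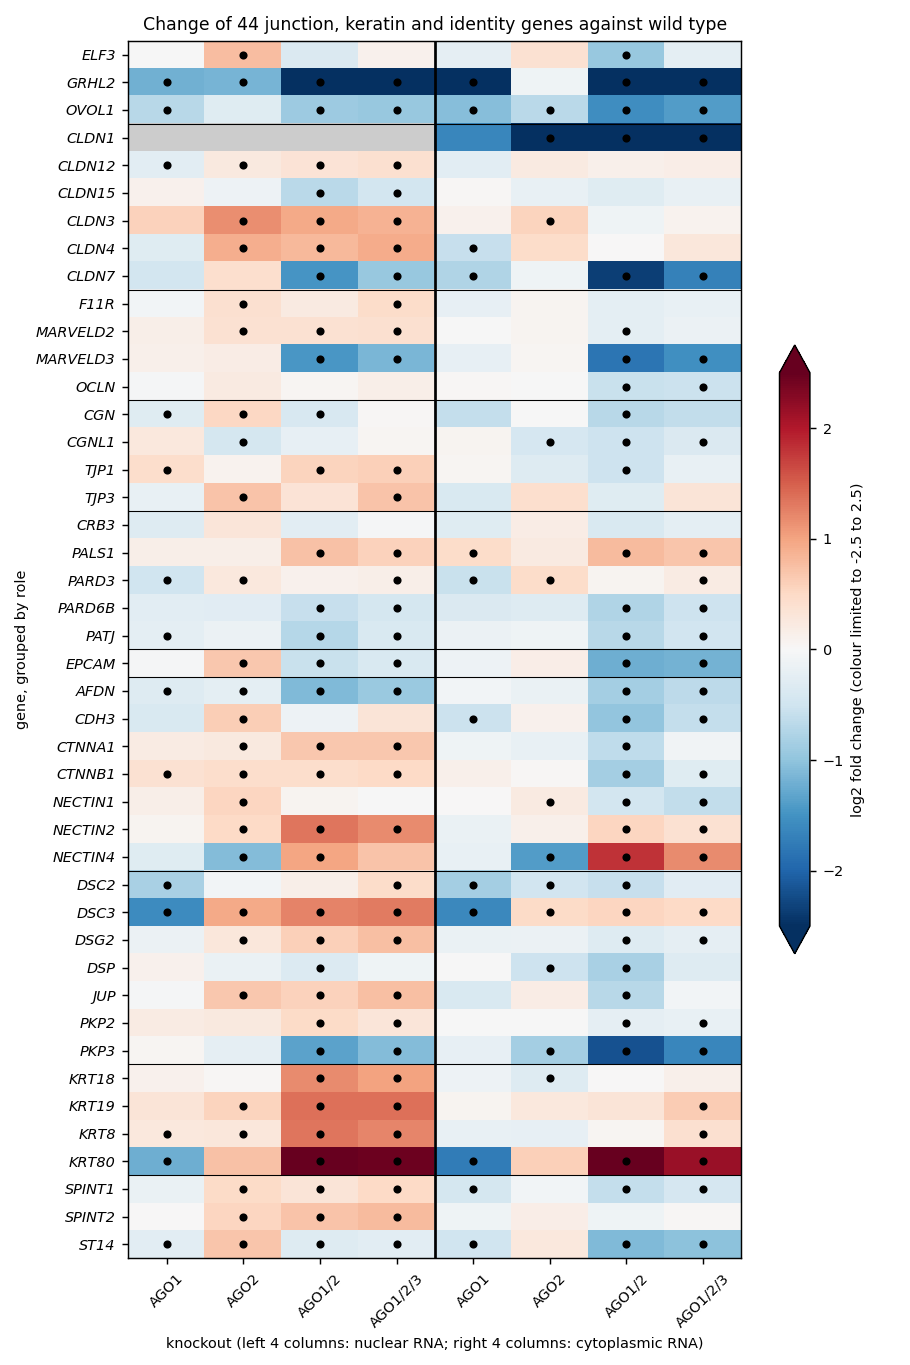
Log2 fold change against wild type (colour, limited to -2.5 to 2.5) of the 44 genes (vertical, grouped by role) in 4 knockout lines and 2 fractions (horizontal); dots mark genes called by edgeR at an adjusted p of at most 0.05, and grey marks CLDN1, which was not tested in nuclei. The AGO1/2 and AGO1/2/3 columns hold mostly higher values in nuclei and mostly lower values in cytoplasm, with 20 higher and 13 lower against 5 higher and 27 lower in AGO1/2.

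Other scalings and the passage 29 library moved these splits. On the log2(TPM + 1) scale, where limma's test was used and the median of all genes lay at -0.19, -0.19, -0.01 and -0.17 in nuclei of the single (AGO1, then AGO2), double and triple knockouts, members called higher and lower numbered 0 and 18, 9 and 10, 16 and 15, and 11 and 14. There 42 members were tested, and 35.8%, 39.3%, 66.1% and 57.4% of all genes were called. In cytoplasm, where the median of all genes lay at -0.12, -0.19, -0.35 and -0.23, members called higher and lower numbered 1 and 17, 0 and 13, 2 and 32, and 3 and 22. Here 38 members were tested, and 21.6%, 35.5%, 69.2% and 56.7% of all genes were called. With protein-coding transcripts alone, the nuclear splits were 17 and 8 in AGO2, 13 and 18 in AGO1/2, and 18 and 13 in AGO1/2/3, so the nuclear majority in AGO1/2 changed side. With these transcripts 38.9%, 64.3% and 58.1% of all genes were called in the 3 lines. Without the passage 29 library the nuclear splits were 9 and 8, 28 and 3, 23 and 13, and 26 and 11, and the cytoplasmic splits 2 and 7, 11 and 3, 7 and 24, and 10 and 17. The majorities in AGO1 nuclei and in AGO2 cytoplasm thus changed side. Of all genes 28.0%, 40.3%, 66.9% and 59.9% were then called in nuclei, and 10.2%, 15.5%, 50.5% and 44.1% in cytoplasm.

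The transcription factor GRHL2, an activator of junction genes, fell most among the members with more than a few reads. Its nuclear level, in CPM (counts scaled by library size and TMM factor) and in order of passage, was 9.22, 10.8 and 11.8 in wild type, 6.502, 4.36 and 2.87 in AGO1, 4.92, 4.23 and 4.98 in AGO2, 0.0672, 0 and 0.0205 in AGO1/2 and 0.0714, 0.340 and 0.216 in AGO1/2/3 libraries. Every knockout library lay below every wild-type library. From 782 wild-type reads and 4 knockout reads, nuclear GRHL2 was 430-fold lower in AGO1/2 (95% interval of counting error 167 to 1584), and from 24 reads it was 61.4-fold lower in AGO1/2/3 (41.0 to 96.5). In the single lines the nuclear log2 fold change was -1.21 (SE 0.26, adjusted p = 0.003) in AGO1 and -1.17 (SE 0.26, adjusted p = 0.0024) in AGO2, by edgeR's quasi-likelihood test as for every adjusted p of the report, and the AGO1 call was lost with protein-coding transcripts alone (adjusted p = 0.062). Cytoplasmic GRHL2 was 1.78, 1.10 and 3.26 in wild type and 2.14, 1.32 and 2.27 in AGO2, which overlapped, but 0.0405, 0.0148 and 0.0129 in AGO1 libraries, 93.2-fold lower (39.4 to 289). All cytoplasmic libraries of AGO1/2 and AGO1/2/3 had 0 reads, which with a floor of 3 reads per library makes GRHL2 at least 55.0-fold and 53.9-fold lower than wild type.

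OVOL1, an epithelial zinc finger factor, and ELF3, an epithelial ETS factor, moved less. Nuclear OVOL1 was 8.52, 8.41 and 11.6 CPM in wild type, 4.68, 5.10 and 5.37 in AGO1/2 and 4.71, 4.13 and 5.99 in AGO1/2/3, with no overlap with wild type in either line. Its cytoplasmic level was 10.98, 9.25 and 13.1 in wild type, 5.39, 5.05 and 5.44 in AGO1, 6.94, 7.08 and 6.81 in AGO2, 3.40, 4.03 and 3.93 in AGO1/2 and 4.42, 4.17 and 4.11 in AGO1/2/3, and here all 4 lines lay below wild type. The cytoplasmic log2 fold changes were -1.07, -0.68, -1.55 (SE 0.11, adjusted p = 8.8e-08) and -1.39 (SE 0.11, adjusted p = 3.4e-07) in that order. The nuclear ones were -0.69, -0.31 (not called, adjusted p = 0.095), -0.91 and -0.94. ELF3 rose in AGO2 nuclei (0.76, SE 0.21, adjusted p = 0.011) and fell in AGO1/2 cytoplasm (-0.96, SE 0.28, adjusted p = 0.01), and its other 6 values lay between -0.36 and 0.38 without a call.

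Across both fractions of the AGO1/2 line, 12 of 43 members fell in nucleus and cytoplasm (13.9% of the 16723 genes tested in both): AFDN, CGN, CLDN7, DSP, EPCAM, GRHL2, MARVELD3, OVOL1, PARD6B, PATJ, PKP3 and ST14. In the AGO1/2/3 line 10 fell in both (12.3% of these genes), the same members without CGN and DSP. CLDN7, a claudin that binds EPCAM, stood at 48.5, 48.2 and 88.2 CPM in wild-type nuclei, 21.2, 17.8 and 27.3 in AGO1/2 and 31.6, 33.8 and 30.8 in AGO1/2/3. In cytoplasm it stood at 78.3, 75.8 and 142 in wild type, 19.1, 14.7 and 24.4 in AGO1/2 and 30.3, 29.4 and 32.0 in AGO1/2/3. The passage 29 library gave the high wild-type value in both fractions, and the knockout libraries of these 2 lines lay below all wild-type libraries. The log2 fold changes were -1.47 (SE 0.19, adjusted p = 7.8e-06) and -0.94 (SE 0.19, adjusted p = 0.00062) in nuclei, the latter -0.57 without passage 29. In cytoplasm they were -2.34 (SE 0.22, adjusted p = 9e-07) and -1.69 (SE 0.21, adjusted p = 2.5e-05). A fall in AGO1 cytoplasm (-0.76, SE 0.21, adjusted p = 0.028) was not called without passage 29 (-0.40 with an adjusted p of 0.11), nor without AGO1 passage 6 (-0.68 with an adjusted p of 0.12) or 7 (-0.75 with an adjusted p of 0.09).

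EPCAM, a surface adhesion molecule of epithelia, rose in nuclei of the AGO2 line and fell in the double and triple knockouts. Its nuclear level was 146, 145 and 146 CPM in wild type, 239.5, 231 and 231 in AGO2, 99.0, 99.1 and 98.4 in AGO1/2 and 109, 122 and 105 in AGO1/2/3. All AGO2 libraries lay above wild type and all double and triple knockout libraries below it. The nuclear log2 fold changes were 0.68 (SE 0.06, adjusted p = 6.2e-07), -0.56 (SE 0.06, adjusted p = 4e-07) and -0.38 (SE 0.06, adjusted p = 3.1e-05). In cytoplasm EPCAM was 235, 237 and 213 in wild type, 91.1, 103 and 99.8 in AGO1/2 and 97.5, 101 and 105 in AGO1/2/3, a log2 fold change of -1.22 (SE 0.07, adjusted p = 6.3e-09) and -1.18 (SE 0.07, adjusted p = 1.2e-08). The fall was larger in cytoplasm than in nuclei, and the difference passed the test of the fraction difference in both lines (0.58, SE 0.09, adjusted p = 1.2e-05, and 0.72, SE 0.09, adjusted p = 3.2e-06). MARVELD3, a tight junction membrane protein of the occludin group, was 24.6, 25.5 and 22.1 in wild-type nuclei against 8.09, 8.24 and 9.94 in AGO1/2 and 10.47, 11.5 and 10.8 in AGO1/2/3. It was 24.3, 24.9 and 20.5 in wild-type cytoplasm against 5.94, 6.34 and 7.22 in AGO1/2 and 7.76, 7.68 and 8.62 in AGO1/2/3. Neither line overlapped wild type, with log2 fold changes of -1.46 and -1.14 in nuclei. In cytoplasm they were -1.84 (SE 0.09, adjusted p = 2.3e-09) and -1.53 (SE 0.09, adjusted p = 1.7e-08).

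Among the other members that fell in both fractions, PKP3, a desmosomal plakophilin, was 41.8, 44.7 and 60.6 CPM in wild-type cytoplasm, 27.1, 26.7 and 28.2 in AGO2, 10.53, 8.34 and 13.4 in AGO1/2 and 16.1, 15.4 and 16.2 in AGO1/2/3, and each of these 3 lines lay below wild type. Its log2 fold changes were -0.84 (SE 0.16, adjusted p = 0.0022), -2.19 (SE 0.17, adjusted p = 1.1e-07) and -1.62 (SE 0.16, adjusted p = 2.4e-06) there. In nuclei wild type was 32.6, 31.1 and 44.5 while AGO1/2 was 14.4, 12.0 and 16.4 and AGO1/2/3 was 16.5, 16.3 and 18.4, both below it. The nuclear log2 fold changes were -1.33 and -1.08. AFDN, whose product ties nectins to actin, fell in nuclei of all 4 lines, from 229.8, 235 and 259 in wild type to 188, 198 and 193 in AGO1, 200.5, 201 and 208 in AGO2, 106, 111 and 118 in AGO1/2 and 126, 128 and 126 in AGO1/2/3. The nuclear log2 fold changes were -0.32, -0.25, -1.11 (SE 0.06, adjusted p = 5.5e-10) and -0.93 (SE 0.06, adjusted p = 4.9e-09). Cytoplasmic AFDN was 55.4, 57.9 and 57.6 in wild type, 31.5, 30.8 and 32.8 in AGO1/2 (-0.85) and 36.4, 39.3 and 33.0 in AGO1/2/3 (-0.65). AFDN was the member with a larger fall in nuclei than in cytoplasm in both lines (difference -0.34, SE 0.09, adjusted p = 0.003, and -0.36, SE 0.09, adjusted p = 0.0041). ST14, the membrane protease matriptase, was 116, 124 and 105 in wild-type cytoplasm, 89.6, 76.4 and 79.4 in AGO1, 52.1, 52.4 and 56.9 in AGO1/2 and 52.0, 54.8 and 62.8 in AGO1/2/3. All 3 lines lay below wild type, with log2 fold changes of -0.49, -1.10 (SE 0.09, adjusted p = 2e-07) and -1.02 (SE 0.09, adjusted p = 5.6e-07). In nuclei ST14 was 76.2, 69.3 and 75.8 in wild type, 59.5, 62.1 and 64.0 in AGO1, 59.5, 59.2 and 57.4 in AGO1/2 and 59.2, 64.2 and 60.3 in AGO1/2/3 (log2 fold changes of -0.25, -0.33 and -0.27). AGO2 libraries, at 122.8, 114 and 120.3, lay above wild type (0.69, SE 0.06, adjusted p = 6.5e-07). The polarity genes PARD6B and PATJ had log2 fold changes between -0.43 and -0.75 and between -0.39 and -0.72 over the 2 lines and fractions.

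Promoter letters could be looked at for 28 of the 44 members, those with an entry in the RefSeq promoter table (GRCh38.p14, 250 bases before to 50 bases after the gene start). The E-box CACCTG, or CAGGTG as it reads on the other strand, is the hexamer that zinc finger repressors of epithelial genes bind in other systems. It was in the window of 15 of 28 members (53.6%), beside 24.1% of 27305 genes with a window of the same length. Of the members that fell in both fractions of AGO1/2, 5 had a window and 4 held the hexamer, with 5 sites in CLDN7, 4 in AFDN, 3 in PATJ and 2 in DSP. Of those that rose in both fractions, 4 had a window and 1 (NECTIN4) held it, and of those that rose in nuclei and fell in cytoplasm, 7 had a window and 4 held it. Among members that fell in cytoplasm only, 4 had a window and 3 held it, and of those called in neither fraction 2 of 2 held it. Among members that rose in nuclei only, 4 had a window and 1 held it, and the 1 window of those that fell in nuclei only did not. CRB3, called in none of the 8 comparisons, had 5 sites, as many as CLDN7. These are matches of letters, and no binding was measured. Sites of CLDN7, AFDN, PATJ and DSP are shown because these genes fell in both fractions, and sites of JUP and DSG2 because these rose in nuclei and fell in cytoplasm, each read 5′ to 3′ on the strand of the gene with the hexamer in capitals.

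CLDN7, chr17:7262596-7262625, minus strand: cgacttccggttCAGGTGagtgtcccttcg
CLDN7, chr17:7262635-7262664, minus strand: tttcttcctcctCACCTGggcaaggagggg
AFDN, chr6:167827473-167827502, plus strand: gggcgcggcagtCACCTGttcccctctccg
PATJ, chr1:61742297-61742326, plus strand: ccggtaggaattCACCTGcacgtaaacagc
DSP, chr6:7541574-7541603, plus strand: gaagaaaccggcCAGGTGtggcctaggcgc
JUP, chr17:41786013-41786042, minus strand: cgactctggcccCACCTGccgagcaggtga
DSG2, chr18:31498049-31498078, plus strand: tcgcggcggccaCACCTGgagccgcgcctt

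In the other direction, 5 of 43 members rose in both fractions of AGO1/2 (17.8% of the genes tested in both): DSC3, KRT80, NECTIN2, NECTIN4 and PALS1. In AGO1/2/3 the members that rose in both were 7: DSC3, KRT19, KRT8, KRT80, NECTIN2, PALS1 and PARD3. The share of all genes that rose in both fractions of AGO1/2/3 was not computed, so this number cannot be set against all genes. Taken singly, 29.1% of all genes rose in nuclei and 18.6% in cytoplasm of that line. KRT80, a keratin of low abundance, was 1.58, 1.42 and 4.99 CPM in wild-type nuclei, 15.3, 19.9 and 15.0 in AGO1/2 and 14.3, 12.1 and 16.2 in AGO1/2/3. It was 1.75, 0.921 and 7.34 in wild-type cytoplasm, 19.0, 22.8 and 14.7 in AGO1/2 and 15.5, 12.9 and 16.1 in AGO1/2/3. The wild-type library of passage 29 was the high one in both fractions, and the knockout libraries lay above it. The log2 fold changes were 2.68 (SE 0.31, adjusted p = 2.1e-06) and 2.45 (SE 0.31, adjusted p = 8.4e-06) in nuclei. In cytoplasm they were 2.49 (SE 0.46, adjusted p = 0.00044) and 2.15 (SE 0.46, adjusted p = 0.0019), and without passage 29 these were 3.83 and 3.48. In the AGO1 line KRT80 was 1.43, 0.827 and 1.11 in nuclei (-1.21, SE 0.40, adjusted p = 0.033) and 1.12, 0.949 and 0.917 in cytoplasm (-1.75, SE 0.52, adjusted p = 0.041), overlapping wild type in both fractions. Neither AGO1 call held without passage 29 (-0.42 with an adjusted p of 0.3 and -0.41 with an adjusted p of 0.43). The nuclear call was lost without AGO1 passage 7 or 8, at -1.03 with an adjusted p of 0.12 and -1.20 with an adjusted p of 0.078. The cytoplasmic call was lost without any single AGO1 library, with adjusted p-values of 0.099, 0.12 and 0.10.

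DSC3, a desmosomal cadherin, moved in opposite directions in the 2 single knockouts. Its nuclear level was 33.9, 31.6 and 28.9 CPM in wild type, 9.10, 11.2 and 11.5 in AGO1, 60.8, 61.3 and 60.6 in AGO2, 75.7, 70.2 and 76.1 in AGO1/2 and 77.6, 80.1 and 74.7 in AGO1/2/3. No line overlapped wild type, with AGO1 below and the other 3 above. The log2 fold changes were -1.57 (SE 0.08, adjusted p = 3.6e-08), 0.95 (SE 0.08, adjusted p = 6.7e-07), 1.23 (SE 0.08, adjusted p = 3.5e-09) and 1.30 (SE 0.08, adjusted p = 3.7e-09). In cytoplasm the levels were 27.1, 28.7 and 25.5 in wild type, 8.48, 8.67 and 9.56 in AGO1, 35.2, 38.2 and 39.7 in AGO2, 38.2, 37.6 and 41.8 in AGO1/2 and 33.8, 38.1 and 43.0 in AGO1/2/3. In AGO1 the log2 fold change was -1.61 (SE 0.09, adjusted p = 9.3e-08), while the rises were smaller (0.48, 0.53 and 0.50) and were not called on the log2(TPM + 1) scale, where the AGO1/2 value was -0.063. The fraction difference was called in the AGO2, double and triple knockouts (0.48, SE 0.12, adjusted p = 0.023, 0.62, SE 0.12, adjusted p = 0.0003, and 0.72, SE 0.12, adjusted p = 0.00017). DSC2, the related cadherin, was 117, 106 and 115 in wild-type nuclei and 61.0, 65.5 and 67.2 in AGO1, and 101, 107 and 104 in wild-type cytoplasm and 52.7, 59.9 and 60.9 in AGO1. AGO1 libraries lay below wild type in both fractions (-0.80, SE 0.10, adjusted p = 4.2e-05, and -0.84, SE 0.12, adjusted p = 0.00044). DSC2 also fell in AGO1/2 cytoplasm (-0.57; 65.4, 58.8 and 84.7 CPM) and rose in AGO1/2/3 nuclei (0.46; 149.6, 159 and 154), the latter not called on the log2(TPM + 1) scale.

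The nectins, immunoglobulin-type adhesion molecules of adherens junctions, did not move together. NECTIN2 was 33.2, 29.8 and 41.1 CPM in wild-type nuclei, 89.2, 95.1 and 78.5 in AGO1/2 and 82.8, 81.6 and 71.9 in AGO1/2/3, with log2 fold changes of 1.34 (SE 0.11, adjusted p = 4.5e-08) and 1.18 (SE 0.11, adjusted p = 2.5e-07) and no overlap. In cytoplasm it was 49.6, 49.4 and 59.6 in wild type, 78.6, 82.1 and 70.5 in AGO1/2 (0.54) and 68.6, 66.5 and 71.7 in AGO1/2/3 (0.38), rises that were not called on the log2(TPM + 1) scale (0.10 with an adjusted p of 0.17 and 0.12 with an adjusted p of 0.11). NECTIN4, a member with few reads, was 0.779, 0.359 and 0.986 in wild-type cytoplasm, 0.265, 0.290 and 0.247 in AGO2, 2.61, 2.65 and 2.18 in AGO1/2 and 1.72, 1.34 and 1.77 in AGO1/2/3. The double and triple knockout libraries lay above all wild-type libraries and the AGO2 libraries below them (-1.39, SE 0.33, adjusted p = 0.011, 1.81, SE 0.29, adjusted p = 0.00012, and 1.18, SE 0.29, adjusted p = 0.0047). The AGO2 call was lost without passage 29 of wild type (-1.07 with an adjusted p of 0.054). NECTIN4 rose in AGO1/2 nuclei as well (0.774, 0.627 and 1.35 in wild type and 2.17, 1.66 and 1.56 in AGO1/2, 0.98, SE 0.29, adjusted p = 0.0081), a call lost with protein-coding transcripts alone (0.66 with an adjusted p of 0.094). NECTIN1 rose in AGO2 nuclei (0.55) and fell in AGO1/2 and AGO1/2/3 cytoplasm (-0.47 and -0.61). PALS1, a scaffold of the Crumbs polarity complex, was 64.7, 62.5 and 62.9 in wild-type nuclei, 104, 116 and 97.5 in AGO1/2 and 92.4, 96.6 and 95.3 in AGO1/2/3. It was 28.2, 25.4 and 25.9 in wild-type cytoplasm, 36.3, 37.0 and 35.6 in AGO1, 45.8, 51.6 and 40.6 in AGO1/2 and 42.4, 44.6 and 41.1 in AGO1/2/3. All of these lay above wild type. It rose in each, by 0.74 and 0.58 in nuclei and 0.45, 0.80 and 0.69 in cytoplasm, with the nuclear AGO1/2/3 rise not called on the log2(TPM + 1) scale (0.15 with an adjusted p of 0.26).

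**Figure D2:**
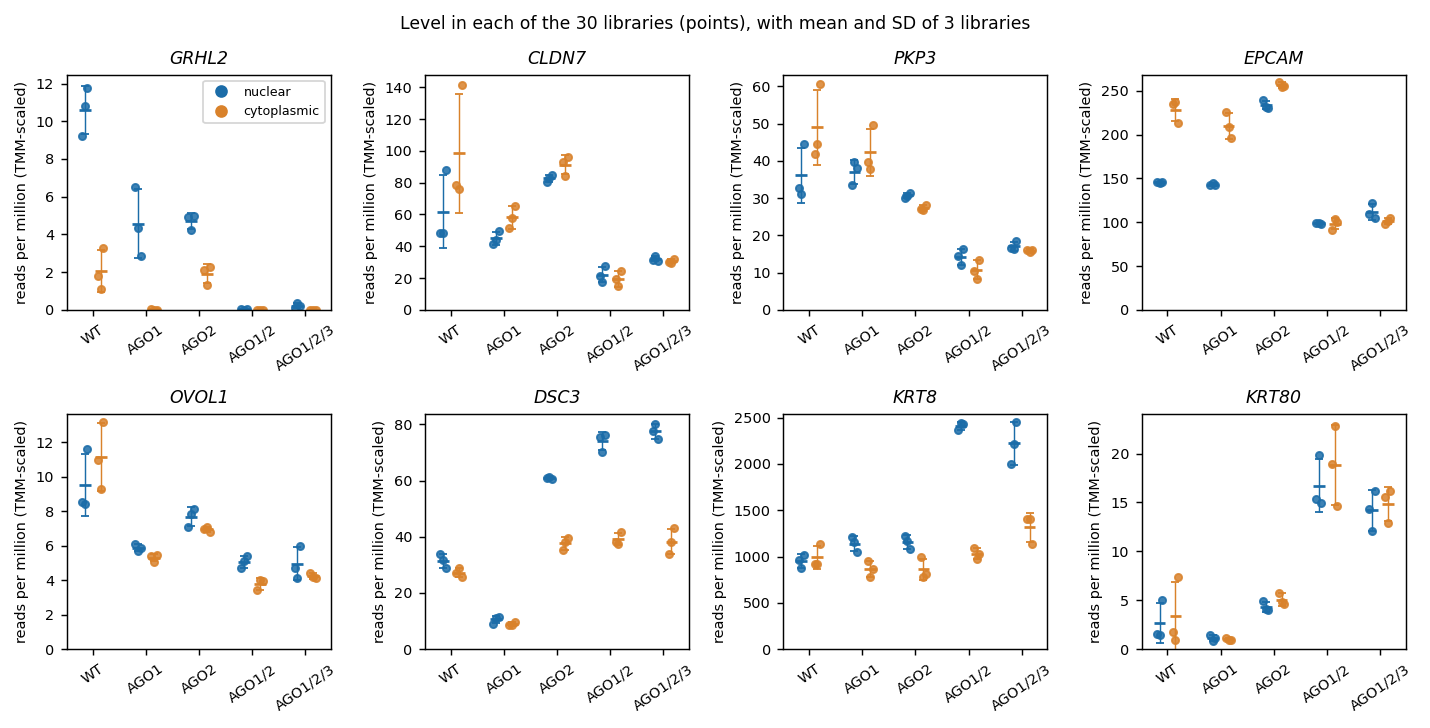
Level of 8 members in each of the 30 libraries (vertical axis, TMM-scaled CPM; horizontal axis, line), with nuclear libraries in blue, cytoplasmic libraries in orange, and bars for the mean and SD of 3 libraries. GRHL2 is at or near 0 in AGO1/2 and AGO1/2/3, CLDN7 and PKP3 lie below wild type there, and KRT8 in nuclei rises from 872 to 1015 in wild type to 2366 to 2439 in AGO1/2.

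The abundant keratins rose in nuclei of the double and triple knockouts. KRT8, which pairs with KRT18 in filaments of simple epithelia, was 967, 872 and 1015 CPM in wild-type nuclei, 2366, 2439 and 2432 in AGO1/2 and 1997, 2215 and 2456 in AGO1/2/3 (1.34, SE 0.08, adjusted p = 3.4e-09, and 1.22, SE 0.08, adjusted p = 1.4e-08). KRT18, its partner, was 597, 546 and 641 in wild type, 1317, 1456 and 1287 in AGO1/2 and 1100.2, 1189.8 and 1279.6 in AGO1/2/3 (1.19, SE 0.09, adjusted p = 2.1e-08, and 1.001, SE 0.09, adjusted p = 1.9e-07). KRT19, the smallest keratin, was 289, 269 and 437 in wild type, 866, 788 and 941 in AGO1/2 and 742, 866 and 966 in AGO1/2/3 (1.38, SE 0.15, adjusted p = 7.4e-07, and 1.37, SE 0.15, adjusted p = 1.2e-06). All 4 keratins, KRT80 included, were called higher in nuclei of both lines, and none of their libraries there overlapped wild type. In cytoplasm the same libraries gave KRT8 at 923, 919 and 1137 in wild type and 1089, 972 and 1024 in AGO1/2 (0.05, SE 0.12, adjusted p = 0.75), which overlapped. KRT18 stood at 684, 671 and 818 in wild type and 755, 733 and 714 in AGO1/2 (0.02, SE 0.11, adjusted p = 0.9), which also overlapped. The fraction difference of the AGO1/2 effect was 1.22 (SE 0.15, adjusted p = 6.2e-07) for KRT8, 1.09 (SE 0.14, adjusted p = 1.4e-06) for KRT18 and 0.98 (SE 0.21, adjusted p = 0.00049) for KRT19. KRT19 rose in AGO1/2/3 cytoplasm (309, 327 and 475 in wild type and 572, 641 and 514 in AGO1/2/3, 0.64, SE 0.14, adjusted p = 0.0028). A rise of KRT8 there (0.40, SE 0.12, adjusted p = 0.013) was lost on the log2(TPM + 1) scale and without wild-type passage 27 or 28 or AGO1/2/3 passage 12, with adjusted p-values of 0.052 to 0.056. Small nuclear rises of KRT8 in AGO1 (0.26) and AGO2 (0.28) turned to -0.017 in both lines on the log2(TPM + 1) scale. They were lost without AGO1 passage 6 (0.22) or 7 (0.26) or wild-type passage 28 (0.22) in AGO1 and without AGO2 passage 8 (0.24) in AGO2. KRT19 rose in AGO2 nuclei (0.55, SE 0.14, adjusted p = 0.0066) and KRT18 fell in AGO2 cytoplasm (-0.33, SE 0.11, adjusted p = 0.047). The KRT18 call was lost without wild-type passage 27 (-0.37, adjusted p 0.052) or 29 (-0.23, 0.15) and without AGO2 passage 9 (-0.26, 0.17) or 10 (-0.29, 0.15). It was also lost with the 2 groups fitted alone (0.13) and with protein-coding transcripts alone (0.052). The summed level of the 4 keratins in nuclei was 1030.0 to 1134 TPM in wild type, 2536 to 2707 in AGO1/2 and 1945 to 2299.9 in AGO1/2/3, and in cytoplasm 1007 to 1189, 764 to 931 and 1011 to 1265. On the TPM scale the cytoplasmic sum in AGO1/2 thus lay below all wild-type libraries, whereas the CPM of KRT8 and KRT18 overlapped wild type there.

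KRT8 and KRT18 overlap at their starts on opposite strands of chromosome 12, KRT8 at chr12:52897187-52949954 and KRT18 at chr12:52948871-52952906 (hg38). The library kit keeps the strand, but the strand setting of the quantification is not given in the sources used here, so the share of reads that the 2 genes could exchange is not known.

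In the AGO1/2 line 8 of 43 members rose in nuclei and fell in cytoplasm (4.63% of the genes tested in both): CTNNA1, CTNNB1, DSG2, JUP, MARVELD2, PKP2, SPINT1 and TJP1. No member did the reverse, which 2.16% of these genes did. In AGO1/2/3 there were 4 (CTNNB1, DSG2, PKP2 and SPINT1; 1.45% of these genes), and again no member did the reverse (0.885%). CTNNB1, encoding beta-catenin, was 379, 359.9 and 321 CPM in wild-type nuclei, 454, 483 and 435 in AGO1, 469.8, 507 and 467 in AGO2, 471, 453 and 508 in AGO1/2 and 459.8, 485 and 543 in AGO1/2/3. All knockout libraries lay above wild type (0.37, 0.45, 0.43 and 0.49). On the log2(TPM + 1) scale the AGO1, AGO2 and AGO1/2/3 values were 0.09 with an adjusted p of 0.56, 0.13 with an adjusted p of 0.36 and 0.20 with an adjusted p of 0.14. With protein-coding transcripts alone the AGO1/2 value was 0.15 with an adjusted p of 0.099. In cytoplasm it was 294, 296 and 272 in wild type, 171, 140.4 and 169 in AGO1/2 (-0.84, SE 0.10, adjusted p = 1.1e-05) and 245, 258 and 194 in AGO1/2/3 (-0.31, SE 0.10, adjusted p = 0.028). The AGO1/2/3 call was lost without AGO1/2/3 passage 14 (-0.19 with an adjusted p of 0.13) and without wild-type passage 27 (-0.29 with an adjusted p of 0.075) or 28 (-0.28 with an adjusted p of 0.081). DSG2, a desmosomal cadherin, was 315, 303 and 362 in wild-type nuclei, 505, 469 and 517 in AGO1/2 and 551, 565 and 536 in AGO1/2/3 (0.60, SE 0.07, adjusted p = 1.7e-06, and 0.75, SE 0.07, adjusted p = 2.6e-07), without overlap. In cytoplasm DSG2 was 336, 357 and 393 in wild type and 281, 274 and 319 in AGO1/2, which lay below (-0.31, SE 0.08, adjusted p = 0.0061). Its AGO1/2/3 call there (-0.23, SE 0.08, adjusted p = 0.042) was lost without wild-type passage 28 or 29 or AGO1/2/3 passage 11 or 12, with log2 fold changes of -0.24, -0.16, -0.16 and -0.20. CTNNA1, encoding alpha-catenin, changed by 0.68 in nuclei and -0.63 in cytoplasm of AGO1/2. JUP, encoding plakoglobin, changed by 0.57 and -0.70, and the tight junction scaffold TJP1 by 0.56 and -0.51.

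The effect of the knockout differed between fractions, by edgeR's interaction test, for 27 of 43 members in AGO1/2 (36.5% of all 20104 genes), with 26 higher in nuclei than in cytoplasm (19.6% of all genes) and 1, AFDN, lower. It differed for 22 members in AGO1/2/3 (22.7% of all genes), 21 higher (11.7% of all genes) and 1 lower. It differed for 6 in AGO2 (5.76% of all genes), all higher (2.63%), and for 1, GRHL2, in AGO1 (0.662% of all genes), which was higher (0.184%). With passage as a replicate block the AGO1 and AGO2 counts were 6 and 26 (6.27% and 18.0% of all genes). The median difference over members was 0.58 in AGO1/2 and 0.56 in AGO1/2/3, beside -0.04 and -0.03 over all genes. With protein-coding transcripts alone the AGO1/2 count was 20 (34.2% of all genes), with 16 higher and 4 lower. The part of nuclear RNA recovery in these differences was not tested: the nuclear RNAs MALAT1 and NEAT1 changed in nuclei by -1.18 and -1.27 in AGO1/2 and by -0.95 and -0.71 in AGO1/2/3. Largest among the members with reads enough in both fractions were CTNNA1 (1.23), KRT8 (1.22), CTNNB1 (1.199), JUP (1.19), KRT18 (1.09) and TJP1 (0.999) in AGO1/2. Of 3 keratins that leaned to the cytoplasm in wild type (-0.50 for KRT8, -0.72 for KRT18 and -0.60 for KRT19), all 3 leaned to the nucleus in AGO1/2 (0.72, 0.37 and 0.38). On the TPM scale wild-type KRT8 went the other way, with 498 ± 24.02 in nuclei and 446 ± 33.6 in cytoplasm. Over all members, 19 were higher in nuclei (36.9% of all genes) and 10 in cytoplasm (31.6%) of AGO1/2, where 68.6% of all genes were called. In AGO1/2/3 they were 17 (36.1%) and 11 (34.1%), with 70.2% of all genes called. AGO1, with 10 (40%) and 20 (34.5%) and 74.5% called, and AGO2, with 13 (39.8%) and 18 (33.6%) and 73.4% called, had more members higher in cytoplasm. These splits also depended on scaling. On the log2(TPM + 1) scale the members higher in nuclei and in cytoplasm were 20 and 5 in AGO1, 27 and 3 in AGO2, 38 and 0 in AGO1/2 and 36 and 2 in AGO1/2/3, where the median of all genes lay at 0.26, 0.33, 0.74 and 0.41. On that scale 75.6%, 75.7%, 83.9% and 75.1% of all genes were called. With protein-coding transcripts alone the members numbered 13 and 14, 15 and 7, 21 and 7, and 23 and 3. With those transcripts 67.8%, 67.2%, 65.5% and 63.8% of all genes were called.

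**Figure D3:**
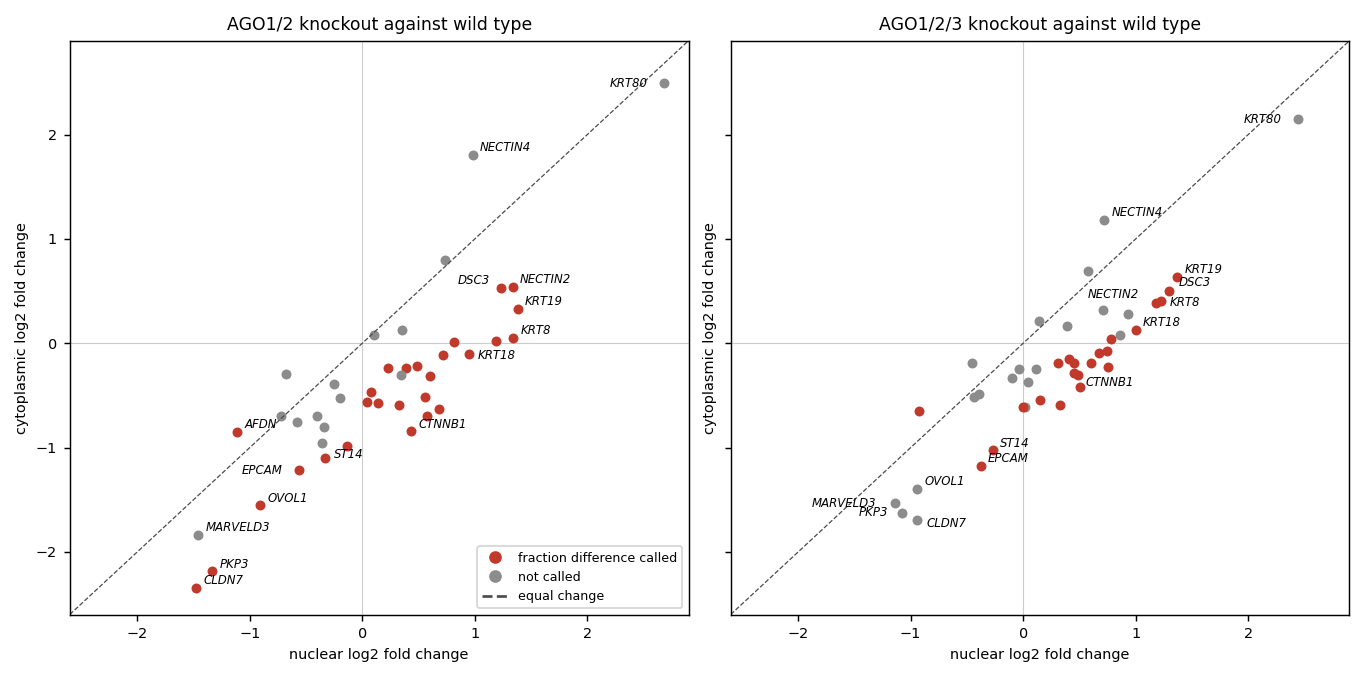
Log2 fold change against wild type in cytoplasmic and in nuclear RNA for the members tested in both fractions, in AGO1/2 and AGO1/2/3; red points are members whose fraction difference was called by edgeR at an adjusted p of at most 0.05, and the line marks equal change. Most points lie on the nuclear side of the line, with 26 of 27 called differences higher in nuclei in AGO1/2; GRHL2 and CLDN1, at or near 0 reads in some groups, are left out.

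The remaining claudins, CLDN3 and CLDN4, barrier-forming members of the family, rose in nuclei. CLDN4 was 43.0, 43.4 and 66.4 CPM in wild-type nuclei, 88.8, 92.9 and 103 in AGO2, 86.4, 77.6 and 104 in AGO1/2 and 92.8, 96.9 and 101 in AGO1/2/3, all above wild type (0.90, SE 0.15, adjusted p = 0.00026, 0.81, SE 0.15, adjusted p = 0.00018, and 0.93, SE 0.15, adjusted p = 6.8e-05). In cytoplasm CLDN4 was 55.5, 60.2 and 87.5 in wild type and 68.0, 57.5 and 79.1 in AGO1/2, which overlapped. It was 38.3, 46.5 and 52.0 in AGO1, a fall (-0.57, SE 0.16, adjusted p = 0.029) that was lost without wild-type passage 29 (-0.34 with an adjusted p of 0.12) and without AGO1 passage 6 (-0.46 with an adjusted p of 0.13) or 7 (-0.58 with an adjusted p of 0.081). CLDN3 was 1.58, 1.71 and 2.65 in wild-type nuclei, 3.81, 4.57 and 4.92 in AGO2, 4.10, 3.06 and 4.20 in AGO1/2 and 3.47, 3.74 and 3.54 in AGO1/2/3 (1.17, 0.95 and 0.86). CLDN12 rose in nuclei of AGO2, AGO1/2 and AGO1/2/3 (0.24 to 0.39) and fell in AGO1 nuclei (-0.26). CLDN15, a pore-forming claudin, fell in nuclei of AGO1/2 and AGO1/2/3 (-0.68 and -0.46). CLDN1 was nearly absent: wild-type cytoplasm held 7, 2 and 28 reads, AGO1 20 in all, AGO2 4, AGO1/2 0 and AGO1/2/3 1. It was not tested in nuclei, and its called cytoplasmic falls in AGO2, AGO1/2 and AGO1/2/3 rest on those few reads, most of them in the passage 29 library.

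Of the other tight junction membrane proteins, occludin (OCLN) fell in cytoplasm of AGO1/2 and AGO1/2/3 (-0.56, SE 0.12, adjusted p = 0.0011, and -0.55, SE 0.12, adjusted p = 0.002) and was at 0.04 and 0.15 in nuclei without a call. MARVELD2, encoding tricellulin at contacts where several cells meet, rose in nuclei of AGO2, AGO1/2 and AGO1/2/3 (0.37, 0.39 and 0.41) and fell in AGO1/2 cytoplasm (-0.24). F11R, a junctional adhesion molecule, rose in nuclei of AGO2 and AGO1/2/3 (0.40 and 0.45). In the plaque, TJP1 rose in nuclei of AGO1, AGO1/2 and AGO1/2/3 (0.45, 0.56 and 0.60). CGN, encoding cingulin, rose in AGO2 nuclei (0.53) and fell in AGO1/2 nuclei (-0.40). CGNL1, encoding paracingulin, fell in AGO2 in both fractions (-0.44 and -0.42) and in cytoplasm of AGO1/2 and AGO1/2/3 (-0.52 and -0.37). TJP3, another zonula occludens scaffold, rose in nuclei of AGO2 and AGO1/2/3 (0.72 and 0.71).

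CDH3, encoding P-cadherin, was 114, 123.5 and 143 CPM in wild-type cytoplasm, 56.3, 50.2 and 86.3 in AGO1/2 and 76.1, 80.1 and 97.3 in AGO1/2/3, both below wild type (-0.98, SE 0.16, adjusted p = 0.00018, and -0.59, SE 0.16, adjusted p = 0.01). The AGO1/2/3 fall was lost without AGO1/2/3 passage 11 (-0.50 with an adjusted p of 0.062). In nuclei CDH3 was 124, 119.7 and 166 in wild type, 215, 196 and 219 in AGO2 (0.62, SE 0.15, adjusted p = 0.0039) and 118, 98.1 and 157 in AGO1/2, the latter overlapping wild type. The AGO2 rise was not called on the log2(TPM + 1) scale (0.30 with an adjusted p of 0.054). SPINT2, a Kunitz-type inhibitor of matriptase, was 76.7, 76.5 and 106 in wild-type nuclei, 121, 127 and 126 in AGO2, 143, 136 and 148 in AGO1/2 and 144, 153 and 149 in AGO1/2/3, and rose in all 3 lines (0.53, SE 0.10, adjusted p = 0.0006, 0.72, SE 0.10, adjusted p = 1.1e-05, and 0.78, SE 0.10, adjusted p = 6.4e-06). Its cytoplasmic level of 153, 148 and 180.1 in wild type overlapped the 144, 139 and 164 of AGO1/2. SPINT1, the related inhibitor, rose in nuclei of the same 3 lines (0.47, 0.33 and 0.51) and fell in cytoplasm of AGO1, AGO1/2 and AGO1/2/3 (-0.44, -0.59 and -0.42). PARD3, a polarity scaffold, fell in AGO1 and rose in AGO2 in both fractions (-0.49 and -0.56, 0.25 and 0.45). It was also called higher in both fractions of AGO1/2/3. CRB3, the Crumbs transmembrane protein, was called in none of the 8 comparisons, with log2 fold changes from -0.39 to 0.31.

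Few of these genes were called between the triple and the double knockout. In nuclei 2 of 43 members were called (3.48% of all genes, 1.74% higher and 1.74% lower). They were CGN and PATJ, which were higher in AGO1/2/3 by 0.42 (SE 0.09, adjusted p = 0.033) and 0.33 (SE 0.08, adjusted p = 0.041). In cytoplasm 2 of 44 were called (4.95% of all genes, 2.47% higher and 2.48% lower). They were CTNNA1 and CTNNB1, higher by 0.53 (SE 0.12, adjusted p = 0.030) and 0.54 (SE 0.10, adjusted p = 0.020). These counts depended on the method. DESeq2 called 9 members in nuclei (9.15% of all genes) and 8 in cytoplasm (10.8%). By limma on the log2(TPM + 1) scale, 1 of 42 members was called in nuclei (21.8% of all genes) and 16 of 38 in cytoplasm (12.7%). Leaving out single libraries gave 0 to 10 in either fraction.

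Transcript makeup was a readout that the choice of genes did not use. For 26 members with annotated retained-intron transcripts and at least 1 TPM, the share of the gene's TPM assigned to those transcripts in nuclei fell below all wild-type libraries in 7 members in AGO1 (22.9% of 7057 genes), 14 in AGO2 (36.7%), 20 in AGO1/2 (65.8%) and 20 in AGO1/2/3 (57.2%), and lay above all wild-type libraries in none. The median share over the members was 16.1% in wild-type nuclei, 7.19% in AGO1/2 and 8.00% in AGO1/2/3, beside 22.2%, 12.3% and 14.4% over all genes, a lower median in members and in all genes alike. CTNNA1 went from 27.6, 25.5 and 27.4% in wild type to 8.18, 9.04 and 9.77% in AGO1/2 and 14.5, 12.6 and 12.9% in AGO1/2/3. TJP1 went from 17.0, 17.9 and 16.2% to 4.80, 4.32 and 5.39% in AGO1/2 and 7.12, 6.17 and 5.40% in AGO1/2/3, and SPINT1 from 10.9, 15.1 and 11.6% to 2.57, 2.29 and 3.04% and 6.52, 2.37 and 2.35%. In these 3 genes no knockout library of the 2 lines overlapped wild type. In cytoplasm the median share over 24 members was 1.18% in wild type, and 4, 2, 2 and 3 members lay below all wild-type libraries in the 4 lines (3.93%, 4.22%, 4.56% and 5.52% of 6542 genes), while 3, 3, 2 and 1 members and 534, 527, 878 and 577 genes lay above them. The shares are estimates from reads divided among overlapping transcripts, and the depth behind each is that of the gene.

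**Figure D4:**
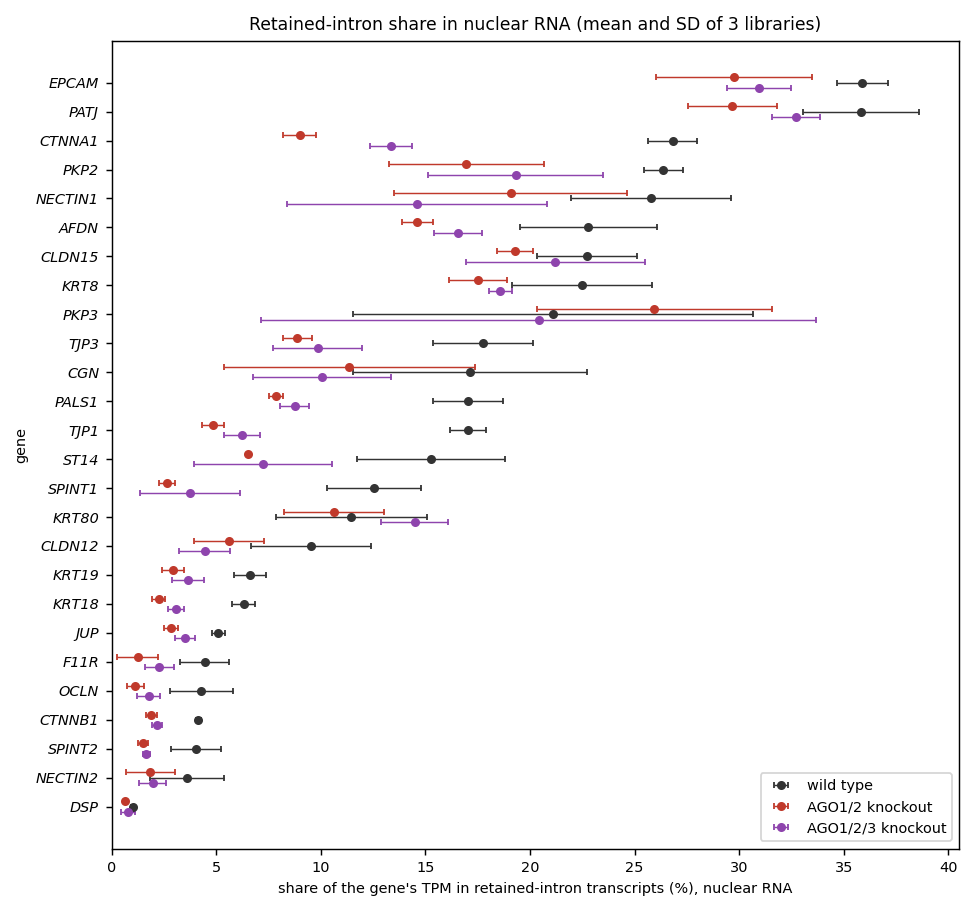
Share of each gene's TPM in annotated retained-intron transcripts (horizontal axis, percent) in nuclear RNA of wild type, AGO1/2 and AGO1/2/3 for 26 members (vertical axis), as mean and SD of 3 libraries. The median share over the members falls from 16.1% in wild type to 7.19% in AGO1/2 and 8.00% in AGO1/2/3.

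The transcript that held most of a gene's TPM was mostly the same in every line. In nuclei it differed from wild type in 4 of 43 members in AGO1/2 and in AGO1/2/3 (AFDN, CTNNB1, GRHL2 and JUP), and in cytoplasm in 5 of 42 and 3 of 43. The single knockouts gave as many in nuclei, 4 of 44 members in AGO1 and in AGO2. In cytoplasm they gave 3 of 44 and 2 of 44. The share of all genes with such a difference was not computed, so these numbers cannot be set against all genes. GRHL2 had 4 nuclear reads in all in AGO1/2 and 24 in AGO1/2/3, too few to rank its transcripts. In JUP the transcript with most of the TPM was JUP-203 in wild-type nuclei, with 43.9% of the gene's TPM, and JUP-201 in AGO1/2, with 50.1%, and both are protein-coding.

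Other genes of the same structures, from lists that leave out the 44 members, gave a wider view. Of 42 other junction genes 24 were tested in nuclei, of which 10 rose and 6 fell in AGO1/2 (32.9% and 34.7% of all genes) and 10 rose and 7 fell in AGO1/2/3 (29.1% and 29.5%). In cytoplasm 25 were tested, of which 2 rose and 10 fell in AGO1/2 (23.9% and 25.4% of all genes) and 2 rose and 9 fell in AGO1/2/3 (18.6% and 20%). E-cadherin (CDH1), the main adherens junction cadherin of epithelia, had log2 fold changes of -2.18 in nuclei and -3.08 in cytoplasm of AGO1/2, and of -1.49 and -2.40 in AGO1/2/3. It also fell in AGO1 (-1.16 and -1.28). The junction scaffold MAGI1 was at -1.63 and -1.91 in AGO1/2, and NECTIN3 at -1.89 and -1.69, both called. Of 13 other keratins 7 were tested in nuclei, with 4 higher and 1 lower in AGO1/2, 4 and 0 in AGO1/2/3, and 0 and 4 in AGO1 (14.3% and 15.6% of all genes, beside the nuclear shares above for the other lines). Of 21 other epithelial identity genes 20 were tested, and in AGO1/2 4 rose and 10 fell in nuclei (32.9% and 34.7% of all genes) and 2 rose and 12 fell in cytoplasm (23.9% and 25.4%). MAL2, a membrane traffic protein of epithelia, showed the largest change of that list, from 14.2 to 16.7 TPM in wild-type nuclei to 0.0987 to 0.341 TPM in AGO1/2.

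Of 12 markers of mesenchymal cells 6 were tested in nuclei, where 3 rose and 0 fell in AGO1/2 (32.9% and 34.7% of all genes) and 3 rose and 1 fell in AGO1/2/3 (29.1% and 29.5%). In the single knockouts 2 rose and 3 fell in AGO1 (14.3% and 15.6% of all genes), and 0 rose and 5 fell in AGO2 (20.2% and 19.9%). The median nuclear log2 fold change of the list was 0.76 in AGO1/2 and 0.54 in AGO1/2/3. In cytoplasm 7 were tested, of which 2 rose and 2 fell in AGO1/2 (23.9% and 25.4% of all genes) and in AGO1/2/3 (18.6% and 20%), with medians of -0.29 and 0.18. There 2 rose and 3 fell in AGO1 (4.28% and 8.13%), and 0 rose and 4 fell in AGO2 (7.07% and 9%). The summed level of the list was 16.8 to 19.3 TPM in wild-type nuclei, 41.4 to 45.01 in AGO1/2 and 34.1 to 36.7 in AGO1/2/3, and 7.86 to 10.6, 17.4 to 22.4 and 21.4 to 23.9 in cytoplasm. Vimentin (VIM), the mesenchymal filament protein, rose from 1.11 to 1.66 TPM in wild-type nuclei to 19.8 to 22.3 in AGO1/2 (3.98 on the log2 scale) and 15.2 to 15.3 in AGO1/2/3 (3.73). This gene alone made up most of the rise of the nuclear sum, which is therefore not a rise of the whole list. SPARC, a matrix protein, rose in nuclei of both lines (1.43 and 2.23) and fell in AGO1 and AGO2 nuclei (-3.46 and -2.82). SNAI2, which encodes a repressor of epithelial genes, was at 0.0608, 0.0636 and 0.128 TPM in wild-type cytoplasm and 0.0125, 0.0124 and 0.00417 in AGO1/2. TWIST1, also of this list, had its largest called change as a fall in AGO2 nuclei (-2.64). ZEB1, another repressor of epithelial genes and named here after its values were seen, rose in AGO1/2 and AGO1/2/3 (1.63 and 1.34 in nuclei, 2.29 and 1.99 in cytoplasm). SNAI2 went the other way in cytoplasm, at -2.72 in AGO1/2/3. Values of ZEB2, FN1 and COL1A1 of this list are not given, so ZEB1 does not stand for the list. CD68, a lysosomal protein used as a macrophage marker, rose as well (2.72 and 2.57 in nuclei, 1.93 and 1.61 in cytoplasm). Of the defining fibroblast markers, DCN was at 0 TPM in every library and LUM and COL1A2 did not exceed 0.0102 and 0.0311 TPM. CDH2, a mesenchymal marker of the same list, did not exceed 0.0392 TPM in any line, and the leukocyte marker PTPRC did not exceed 0.00413 TPM. The part of these markers in the changes of the junction genes was not tested.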

How the data were processed

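Nuclear and cytoplasmic RNA of 5 HCT116 genotypes was sequenced in 3 libraries each. According to the submitters' processing notes, reads were aligned to hg38 with STAR 2.5.3a and transcripts quantified with Salmon 0.11.0; the strand setting is not given in the sources used here. The deposited estimated counts and the deposited TPM values are per transcript, without pooling of libraries. Transcripts were matched by Ensembl identifier to GENCODE 44 (196040 of 200401; the others held 2.23% to 4.01% of reads and were left out) and summed to genes. Estimated counts were rounded, filtered by filterByExpr with a minimum count of 10, scaled by TMM and tested with edgeR 4.0.16 (R 4.3.3), using 15 libraries for each fraction and 30 for comparisons between fractions, at an adjusted p of 0.05 (Benjamini-Hochberg over all genes tested). TPM was used to compare levels between genes and for transcript shares, and CPM values are TMM-scaled counts. Alternatives were DESeq2 1.42.0, limma 3.58.1 on log2(TPM + 1) and log2(TPM + 0.1) with genes of at least 1 TPM, length-scaled counts, no filter, a mean of at least 50 reads, protein-coding transcripts only, only the groups compared, passage as a block, and each library left out. The scripts were tested on simulated data. Replicate libraries differed by more than sampling noise, so none was merged. Wild-type libraries of the same passage deviated together in both fractions (r of 0.156, 0.148 and 0.402 across genes). Values in every library were given for up to 24 members, those called in the same direction in at least 3 of 4 lines of a fraction or with an absolute log2 fold change of at least 1. Intervals and floors of 3 reads cover counting error at 95% only. The members and lists were chosen with earlier results of these data known. The 8 eCLIP samples were not used here.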

Additional observations from a re-analysis of the deposited data

Results flagged for a closer look

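Named members whose response to the knockout differed between the fractions by the interaction test of edgeR (adjusted p of at most 0.05) are given here as the nuclear minus the cytoplasmic log2 fold change against wild type, where a positive value means a higher change in nuclei; each was tested, and no cause was. In the AGO1/2 line the differences were KRT8 (1.22), CTNNB1 (1.2), KRT18 (1.09), KRT19 (0.98), CLDN3 (0.97), DSG2 (0.84), CLDN7 (0.79), PKP3 (0.78), CDH3 (0.77), SPINT2 (0.75), CLDN4 (0.73), NECTIN2 (0.72), ST14 (0.69), DSC2 (0.63), DSC3 (0.62), EPCAM (0.58), OVOL1 (0.57) and AFDN (-0.34). In the AGO1/2/3 line the differences were DSG2 (0.90), CDH3 (0.83), KRT18 (0.79), KRT8 (0.74), DSC3 (0.72), NECTIN2 (0.72), EPCAM (0.72), CTNNB1 (0.71), ST14 (0.68), SPINT2 (0.67), DSC2 (0.66), KRT19 (0.66) and AFDN (-0.36). In the AGO2 line the differences were EPCAM (0.52), KRT8 (0.49), DSC3 (0.48), DSG2 (0.44) and ST14 (0.43). AFDN was the member with a lower change in nuclei, in both multiple knockouts, and the AGO1 line gave none of these beyond GRHL2, whose cytoplasmic reads were too few in AGO1 for a value here.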

How the results depend on the processing

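Over the named genes, 114 results gave 1698 values under the alternatives, of which 1588 kept their direction and call, 104 lost the call (in 32 results) and 6 reversed. The reversals were on the TPM scales: DSC3 in AGO1/2 cytoplasm (-0.087 with a pseudocount of 0.1 and -0.063 with 1) and KRT8 in AGO1 and AGO2 nuclei (-0.017 in each case, with either pseudocount). Counts of called members that moved by over 1.5 times were the following. With only the groups compared, AGO1 nuclei gave 9, AGO2 cytoplasm 5, AGO1/2/3 against AGO1/2 gave 1 in nuclei and 0 in cytoplasm, and the AGO2 fraction difference 1. For AGO1/2/3 against AGO1/2, nuclei gave 9 by DESeq2, 0 with length-scaled counts, 1 by limma with either pseudocount, 5 with a mean of at least 50 reads, 7 without a filter and 1 with protein-coding transcripts, and cytoplasm gave 8 by DESeq2, 16 by limma with either pseudocount, 4 with a mean of at least 50 reads and 7 without a filter. The AGO1 fraction difference gave 2 by DESeq2, 0 by limma with either pseudocount and 2 with protein-coding transcripts, and the AGO2 one 2 by limma with a pseudocount of 0.1 and 2 with protein-coding transcripts. The cause was not tested. These counts show only how far the methods differ, and the shares of all genes are not given for each. With passage as a replicate block the fraction differences numbered 6 in AGO1, 26 in AGO2, 33 in AGO1/2 and 30 in AGO1/2/3. Of all genes 6.27%, 18.0%, 46.4% and 34.9% were called there. Nucleus against cytoplasm gave 38 in wild type and 34, 37, 36 and 32 in these lines in turn. The shares of all genes were 80.3% in wild type and 78.9%, 77.8%, 73.6% and 75.5% in these lines. In the knockouts the pairing check did not give a correlation over 0.1 for every pair (-0.03 to 0.21), so their libraries share only a passage number.

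Leaving out single libraries gave, in nuclei, 11 to 17 called members in AGO1, 23 to 31 in AGO2, 33 to 36 in AGO1/2, 31 to 37 in AGO1/2/3 and 0 to 10 in AGO1/2/3 against AGO1/2 (10 without AGO1/2 passage 11). In cytoplasm they were 7 to 15 (7 without AGO1 passage 6 or 7), 6 to 14 (6 without AGO2 passage 8 or 9), 31 to 35, 22 to 27 and 0 to 10. Nucleus against cytoplasm gave 33 to 36 in wild type, 27 to 29 in AGO1, 25 to 29 in AGO2, 25 to 29 in AGO1/2 and 24 to 27 in AGO1/2/3, and the fraction difference 1 in AGO1 throughout, 3 to 11 in AGO2 (3 without cytoplasmic AGO2 passage 9, 11 without nuclear wild-type passage 29), 24 to 29 in AGO1/2 and 20 to 27 in AGO1/2/3. Of these fits, the share of all genes is given above only for the comparisons with wild type without passage 29. NECTIN4, KRT80, CLDN1, wild-type nuclear CLDN3 and cytoplasmic GRHL2 rest on few reads.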
